A study of Mus musculus with 12 samples.

Results

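The comparison described here is that of input RNA from whole fetal mouse ovaries between Fmr1 knockout (KO) and wild type (WT). Members were chosen by their labels: 6 of the 12 libraries of the study are input libraries, 3 of KO and 3 of WT, made from part of the homogenate before any immunoprecipitation. The question was how transcript levels of genes outside the X chromosome, the Y chromosome and the mitochondrial genome differ between the genotypes. These genes are called autosomal below. The annotation of the count files holds 55416 genes, of which 51187 are autosomal by this definition, including 57 genes on 17 unplaced scaffolds. A filter on low counts left 22753 autosomal genes for testing, out of 23698 tested genes in all. The 28434 autosomal genes not tested include 4418 without a read in any library.

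Fmr1 lies on the X chromosome and encodes FMRP, an RNA-binding protein that associates with ribosomes and represses the translation of many of its target transcripts. It is best known from the brain, where loss of FMRP alters the amount of protein made from synaptic transcripts. In the fetal ovary the germ cells are in meiotic prophase and are surrounded by somatic cells that will form the follicles. Changes in FMR1 are linked to ovarian insufficiency in people. A protein that acts on translation may leave the abundance of an RNA as it was, and abundance is all that input libraries measure.

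All pools came from E16.5 embryos and carry the same strain label, B6.129P2-Fmr1tm1Cgr/J, in both genotypes, which is the name of the line with the disrupted Fmr1 gene. The KO groups are labelled FMR1 knockout and the WT groups wildtype. The series design calls the WT input animals littermates, without giving which pools shared a litter. The submitters' notes name an older genome build than the one of the annotation used for counting. If the reads were aligned to the older build, the counts of all genes given here could be affected, which was not tested. Homozygosity of the KO embryos is not given in the sources used here. Each library was made from 5 pooled pairs of ovaries, so the spread between libraries is one between pools and not between embryos, and p-values measure that spread only. In whole tissue, fewer cells of a type and less RNA per cell cannot be told apart. The tissue label could not be checked against markers, because the count files do not pair their gene identifiers with names.

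The input libraries held 18880238 to 25707718 counted reads, of which 94.2% to 94.6% fell on autosomal genes. Between 38074 and 40002 autosomal genes had at least 1 read in a library. Levels are given as CPM, read counts relative to the total of their library, which was scaled by a TMM factor. These factors ran from 0.986 to 1.018. CPM is not corrected for gene length, so it compares a gene between libraries and not genes with each other. As a check of the labels, Fmr1 stood at 85.6, 123 and 93.4 CPM in the 3 KO libraries and at 204, 213 and 221 CPM in the 3 WT libraries. The groups did not overlap. In edgeR's quasi-likelihood fit, with p-values adjusted by Benjamini and Hochberg over all tested genes, the log2 change was -1.08 with an SE of 0.11 (adjusted p = 0.00775). Reads on Fmr1 thus remained in every KO library, and counts per gene do not show from which exons they came.

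Few autosomal transcripts passed the test. At an adjusted p under 0.05, 4 autosomal genes were lower in KO (0.0176% of the 22753 tested) and 0 were higher (0%). Over all 23698 tested genes the counts were 10 lower (0.0422%) and 0 higher (0%), so that 6 of the 10 lay among the 945 tested genes of X, Y and the mitochondrial genome. The smallest adjusted p of an autosomal gene higher in KO was 0.0729 (edgeR). At an unadjusted p under 0.05, 659 autosomal genes were higher in KO (2.9%) and 669 lower (2.94%). These 1328 genes compare with 1138 for 5% of the tested genes. Over all tested genes the unadjusted shares were 2.9% higher and 3% lower.

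The number of autosomal genes past the adjusted threshold rested on single pools. It was 25 without KO pool 1 (15 higher, 10 lower), 24 without WT pool 2 (0 higher, 24 lower), 6 without WT pool 1 (2 higher, 4 lower), and 2 without KO pool 2 or without WT pool 3. DESeq2 gave 26 (14 higher, 12 lower) and limma-voom 1, a fall. At an unadjusted p under 0.05, DESeq2 gave 629 higher and 610 lower, and limma-voom 649 higher and 684 lower. Over these and the other alternatives, 110 autosomal genes passed in at least 1 of 15 settings, 5 in at least 5, and 1 in all of them.

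The gene that passed in all settings was ENSMUSG00000022225, on the minus strand of chromosome 14 (56178908 to 56182132), with 1090 bp of exons in 5 blocks and no overlap with another annotated gene. It stood at 18.96, 16.47 and 19.24 CPM in the KO pools and at 32.3, 33.5 and 29.4 CPM in the WT pools. The pools of each genotype lay close together, and the lowest WT value was far above the highest KO value. The group means were 18.2 ± 1.52 CPM in KO pools and 31.7 ± 2.09 CPM in WT pools (SD, n = 3 per genotype), so that WT was 1.74-fold above KO. The fitted log2 change was -0.80 (SE 0.11, adjusted p = 0.00440, edgeR). Under the 14 alternatives it ran from -0.85 to -0.73, with adjusted p of at most 0.0412. The read counts behind it were 364, 397 and 363 in KO and 818, 767 and 620 in WT. Of 6 other tested genes within 100 kb, none was at an unadjusted p under 0.05. Their log2 changes ran from -0.87 to 0.11, the lowest in a gene with a mean of 0.555 CPM.

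Another gene, on the plus strand of chromosome 7 (29626403 to 29629830), is a single exon block of 3428 bp that overlaps no other annotated gene. Its levels were 2.29, 1.91 and 2.76 CPM in KO and 4.81, 8.12 and 8.30 CPM in WT. WT pool 1 was the lowest of the WT pools and still above every KO pool. The means of 2.32 ± 0.424 and 7.08 ± 1.96 CPM (SD, n = 3 each) gave a log2 change of -1.61 (SE 0.25, adjusted p = 0.00775, edgeR). The call was lost without KO pool 2, without WT pool 3 and with limma-voom, where the adjusted p ran from 0.0711 to 0.0879. The log2 change stayed between -1.83 and -1.48. The 8 tested genes within 100 kb had log2 changes from -0.23 to 0.24, none at an unadjusted p under 0.05.

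The largest estimated fall among the called autosomal genes was that of ENSMUSG00000117490, on the plus strand of chromosome 18 (8180579 to 8192719), with 2382 bp in 8 exon blocks. It had 3, 7 and 3 reads in the KO libraries and 44, 61 and 23 reads in the WT libraries. These counts correspond to 0.156, 0.290 and 0.159 CPM in KO and 1.74, 2.66 and 1.09 CPM in WT. The gene was close to the limit of detection in each KO pool, while the WT pools differed among themselves by more than the KO pools did. The fitted log2 change was -3.11 (SE 0.48, adjusted p = 0.00775, edgeR), with a range of -3.49 to -2.74 over the alternatives. With limma-voom it did not pass (adjusted p = 0.102). No other tested gene lay within 100 kb.

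The last of the called genes, on the minus strand of chromosome 7 (94018190 to 94021779), has 2720 bp in 2 exon blocks and overlaps 1 other annotated gene. Overlap was judged from whole gene spans, introns included, whereas reads were counted on exons. The overlapping gene (93691898 to 94358378) has 6242 bp in 3 exon blocks and a mean of 0.754 CPM. Whether exons of both genes overlap was not tested. Levels of the called gene were 2.55, 3.28 and 2.81 CPM in KO and 5.88, 7.20 and 8.11 CPM in WT, again without overlap between the groups. The means were 2.88 ± 0.368 CPM and 7.06 ± 1.12 CPM (SD, n = 3 each), with a log2 change of -1.28 (SE 0.21, adjusted p = 0.0152, edgeR). It did not pass without KO pool 2, without KO pool 3, without WT pool 3 or with limma-voom (adjusted p from 0.0545 to 0.171). The log2 change stayed between -1.40 and -1.18 in all alternatives.

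**Figure D1:**
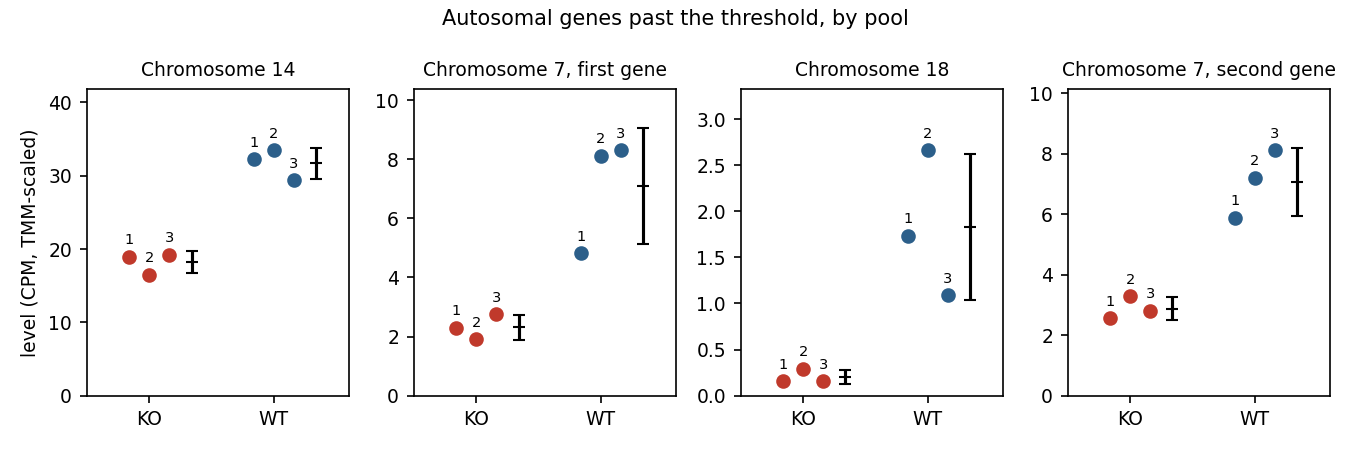
Levels in CPM (linear axis from 0) of the 4 autosomal genes past the adjusted threshold, with 1 point per pool numbered by replicate, and bars for the mean ± SD of 3 pools. In each panel all WT points lie above all KO points, with a ratio of means of 1.74 for the gene on chromosome 14.

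Just short of the threshold, 5 autosomal genes higher in KO and 8 lower, the 4 called ones among them, had an adjusted p under 0.1. The strongest of those higher in KO was ENSMUSG00000061086, on chromosome 11 (104441489 to 104486579), which overlaps 4 annotated genes. It stood at 5.21, 10.4 and 11.3 CPM in KO and at 3.79, 1.96 and 2.42 CPM in WT. KO pool 1 lay nearest to the WT range, and WT pool 1 nearest to the KO range. The fitted log2 change was 1.71 (SE 0.30, adjusted p = 0.0729, edgeR). It passed in 5 of the 14 alternatives, among them DESeq2 and the fits without KO pool 1 (adjusted p = 0.000270) and without WT pool 1 (adjusted p = 0.0128). The adjusted p over all alternatives ran from 8.03e-12, with no filter on low counts, to 0.431, without WT pool 3.

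The other genes of this kind had smaller estimated differences. A gene on chromosome 17 (25585279 to 25588072) stood at 19.5, 15.2 and 12.3 CPM in KO and at 25.21, 27.01 and 25.99 CPM in the WT pools (log2 change -0.73, adjusted p = 0.0725, edgeR). Its KO pools were spread over a wider range than its WT pools. A gene on chromosome 19 (3438857 to 3457823) stood at 11.98, 16.72 and 11.18 CPM in KO and at 6.12, 7.64 and 8.01 CPM in the WT pools (log2 change 0.88, adjusted p = 0.0828, edgeR). A gene of a single exon block on chromosome 14 (20691077 to 20694116), which overlaps 1 other gene, stood at 15.2, 17.0 and 14.3 CPM in KO and at 8.72, 7.42 and 10.9 CPM in the WT pools (log2 change 0.79, adjusted p = 0.0828, edgeR). In both, every KO pool was above every WT pool. Genes on chromosome 8 (84937307 to 84963684), chromosome 4 (118965908 to 118995180), chromosome 2 (164611818 to 164620742) and chromosome 6 (84548396 to 84570890) had log2 changes of 0.42, -0.38, -0.47 and -0.59, with adjusted p of 0.0887, 0.0730, 0.0863 and 0.0887 (edgeR). The groups did not overlap in any of these 4 genes either, of which those on chromosomes 2 and 6 are named after their values were seen. None of the genes in this paragraph passed the main test. With DESeq2, those on chromosomes 17, 19, 14, 8 and 4 passed, with adjusted p of 0.00106, 0.00320, 0.00212, 0.0114 and 0.00566. With limma-voom none of these 5 did, with adjusted p from 0.102 to 0.251.

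The absence of overlap alone did not single out a gene. In 1185 autosomal genes all KO pools lay above all WT pools (5.21% of those tested), and in 1276 all lay below (5.61%).

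Over all tested autosomal genes the log2 change centred near 0. The median was -0.0017 and the middle 50% of genes lay between -0.12 and 0.12. An estimate under 0.5 in size was found in 91.1% of the genes. In 273 genes (1.20%) it was 1 or more in size, a difference of 2-fold or more. Only 9 of these 273 had a mean of 10 CPM or more, out of 10823 autosomal genes at that level.

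Genes were then divided into 5 classes by their mean CPM over all 6 libraries, which does not depend on the direction of change. The class under 1 CPM held 4155 tested genes, the class from 1 to 10 CPM 7775, that from 10 to 100 CPM 9034, that from 100 to 1000 CPM 1752, and the class of 1000 CPM and over 37. These last 37 genes took 22.8% to 24.1% of the autosomal reads of a library, with no separation of the genotypes: 23.3%, 22.8% and 24.1% in KO and 24.1%, 23.4% and 24.1% in WT. The genes under 1 CPM together took 0.278% to 0.302%.

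**Figure D2:**
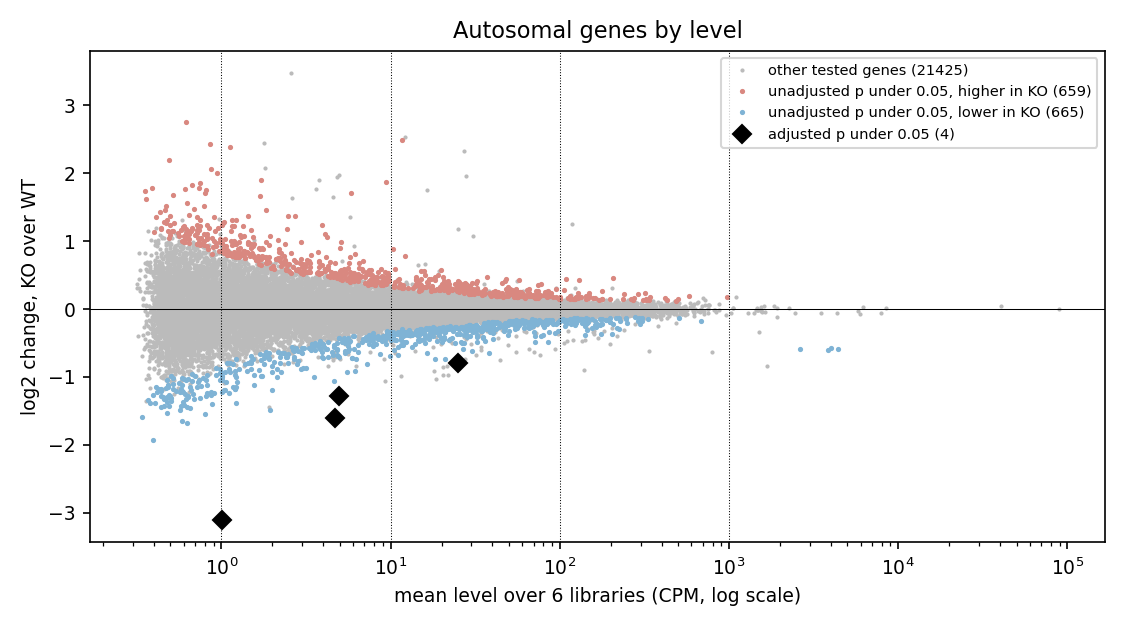
Log2 change of KO over WT (vertical axis) against the mean level over 6 libraries in CPM (logarithmic horizontal axis) for the 22753 tested autosomal genes, with dotted lines at the class edges. The cloud narrows as the level rises, the 4 called genes (diamonds) all lie below 0, and 4 genes of 1000 CPM and over form a group below 0.

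The error and the range of the log2 change both fell as the level rose. From the lowest to the highest class the median standard error was 0.47, 0.27, 0.11, 0.067 and 0.059. The middle 50% of log2 changes ran from -0.30 to 0.32 under 1 CPM, from -0.16 to 0.20 at 1 to 10 CPM, from -0.082 to 0.071 at 10 to 100 CPM and from -0.060 to 0.039 at 100 to 1000 CPM. In each of these classes that range was narrower than 1 median standard error to either side of the class median. The smallest log2 change that reached an unadjusted p of 0.05 was 0.81 in size under 1 CPM, 0.33 at 1 to 10 CPM, 0.14 at 10 to 100 CPM and 0.12 at 100 to 1000 CPM. In genes under 1 CPM, with a median of 13.5 reads per library, smaller differences thus did not reach that p. What depth and the spread between pools each contributed to this limit was not tested.

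Class medians of the log2 change were 0.0073, 0.019, -0.0070, -0.012 and -0.027 from the lowest class to the highest. Each is smaller than the median standard error of a single gene in its class, which is not the error of a class median. The SD of the class median between pools of a genotype was 0.036, 0.011, 0.0081, 0.0059 and 0.032 in the same order. The medians at 1 to 10 CPM and at 100 to 1000 CPM were larger in size than this SD, and those of the other classes smaller. No test was made of class medians. The median at 10 to 100 CPM turned to 0.0023 without KO pool 2, and the median under 1 CPM to -0.012 without the same pool. In the class of 1000 CPM and over, 25 genes had negative and 12 positive estimates, and its median moved from -0.027 to -0.061 without WT pool 2 and to -0.0062 without WT pool 1. The median at 100 to 1000 CPM was -0.0045 without WT pool 1. Median deviations of that class from the mean of all libraries were -0.0039, -0.0039 and -0.0035 in the KO pools. In the WT pools they were 0.017, 0.00015 and 0.0077, without overlap with the KO pools. At 1 to 10 CPM the genotypes overlapped in these deviations.

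The share of genes at an unadjusted p under 0.05 was 4.48% under 1 CPM (100 higher in KO, 86 lower), 5.89% at 1 to 10 CPM (274 higher, 184 lower) and 6.14% at 10 to 100 CPM (236 higher, 319 lower). At 100 to 1000 CPM it was 7.13% (49 higher, 76 lower), and at 1000 CPM and over 10.8%, with 4 of 37 genes, all lower. In this highest class the number was 0 without KO pool 2, without KO pool 3 or without WT pool 3, and 7 without WT pool 2. These compare with 2.9% higher and 2.94% lower over all tested autosomal genes. Of these genes, more were higher than lower in KO at 1 to 10 CPM, and more were lower than higher in each class from 10 CPM up. Under 1 CPM the direction of the split changed with the processing, with 106 higher and 115 lower without KO pool 2, and 531 higher and 593 lower without the filter on low counts. At 100 to 1000 CPM the split was 25 higher and 72 lower without WT pool 2. The 4 genes past the adjusted threshold lay in the classes from 1 to 10 CPM, with 3, and from 10 to 100 CPM, with 1.

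**Figure D3:**
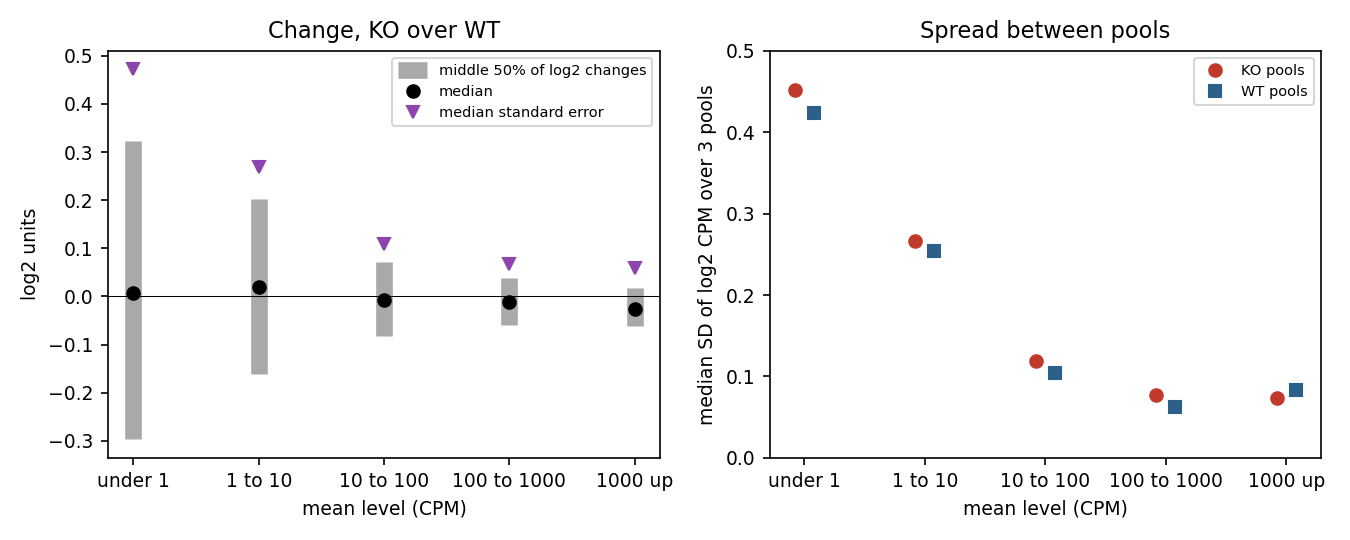
By class of mean CPM: on the left the median and the middle 50% of log2 changes of KO over WT with the median standard error, in log2 units; on the right the median over genes of the SD of log2 CPM over the 3 pools of each genotype. Medians stay near 0 in all classes, and the spread between pools falls from 0.452 (KO) and 0.423 (WT) under 1 CPM to 0.0774 and 0.0619 at 100 to 1000 CPM.

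Within the classes, some of the genes with the smallest p of each direction illustrate these sizes. Under 1 CPM, a gene on chromosome 1 (165925717 to 165955491) stood at 1.04, 1.62 and 1.85 CPM in KO and at 0.473, 0.349 and 0.285 CPM in the WT pools (log2 change 2.00, SE 0.42, adjusted p = 0.107, edgeR). Its groups did not overlap, and a 4-fold estimate still fell short of the threshold. In that class, the 3 genes lower in KO with the smallest p had log2 changes from -1.93 to -1.40. Their adjusted p ran from 0.444 to 0.470 (edgeR). At 100 to 1000 CPM, a gene on chromosome 2 (91357107 to 91451009), with 45 exon blocks, stood at 201, 188 and 194 CPM in KO and at 164, 154 and 165 CPM in the WT pools (log2 change 0.27, SE 0.062, adjusted p = 0.170, edgeR). A gene on chromosome 19 (37246142 to 37340010) stood at 114, 135 and 129 CPM in KO and at 108, 81.8 and 87.3 CPM in the WT pools (log2 change 0.45, SE 0.093, adjusted p = 0.128, edgeR). WT pool 1 of that gene lay close to KO pool 1. A gene on chromosome 4 (32657119 to 32775217), with 21836 bp in 102 exon blocks, stood at 137, 153 and 155 CPM in KO and at 188, 169 and 176 CPM in the WT pools (log2 change -0.26, SE 0.068, adjusted p = 0.360, edgeR).

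The genes that took the most reads differed little between the genotypes. A single exon block on chromosome 17 (40157244 to 40159092) took 9.33% of the autosomal reads on average, with 88584 ± 6025 CPM in KO pools and 88821 ± 9198 in WT pools (SD, n = 3 per genotype). Another, of 331 bp on chromosome 9 (78082585 to 78082915), stood at 41292 ± 3015 and 39930 ± 7698 CPM. A gene on chromosome 7 (142129266 to 142131880) was the steadiest of the 5 highest, at 8466 ± 63.7 CPM in the KO pools and 8400 ± 230 in the WT pools. The remaining 2, on chromosome 11 (94827050 to 94843868) and chromosome 9 (123195992 to 123291731), stood at 7700 ± 611 and 8021 ± 1190 CPM, and at 6218 ± 646 and 6114 ± 481 CPM, in KO and WT. In all 5 the difference between the means was smaller than the larger SD.

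In the same highest class, 4 genes at 2 places were lower in KO at an unadjusted p under 0.05 without passing the adjusted threshold. On chromosome 11 these were 2 genes of 3 exon blocks each (32233511 to 32234465 and 32246489 to 32247298). On chromosome 7 they were genes of 3 and 4 exon blocks (103461731 to 103463203 and 103475741 to 103477303). Their log2 changes ran from -0.60 to -0.57, with adjusted p from 0.779 to 0.805 (edgeR). For the 3 of them with values under the alternatives, the adjusted p was 0.0850 to 0.106 without robust moderation and 0.0801 to 0.0879 with limma-voom, at like log2 changes. Summed over the 4 genes, the level was 14155, 10736 and 10864 CPM in the KO pools and 20990, 14902 and 17768 CPM in the WT pools. All WT pools were above all KO pools, with KO pool 1 close to WT pool 2. The means were 11918 ± 1938 CPM and 17887 ± 3046 CPM (SD, n = 3 each). In each of the 4 genes WT pool 1 was highest and WT pool 2 the lowest of the WT pools, and KO pool 1 the highest of the KO pools, so they are not separate observations. A less abundant gene beside the pair on chromosome 7 (103500956 to 103502423) went the other way, at 7.35, 6.64 and 6.47 CPM in KO and 3.39, 2.92 and 3.98 CPM in the WT pools (log2 change 0.99, SE 0.20, adjusted p = 0.0887, edgeR).

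The spread between pools was measured over the 10823 autosomal genes of 10 CPM or more, as the SD over genes of the log2 difference between 2 libraries. Among the 3 KO pairs it averaged 0.229 ± 0.0043 (SD over pairs), with a range of 0.225 to 0.233. Among the 3 WT pairs it averaged 0.217 ± 0.0086, with a range of 0.208 to 0.225. The 9 pairs of 1 KO and 1 WT pool averaged 0.229 ± 0.022, with a range of 0.201 to 0.270. Pools of different genotypes were therefore as close to each other, on average, as pools of the KO. The closest pair of all was KO pool 1 with WT pool 2, and the farthest was KO pool 3 with WT pool 3. Pairs share libraries, so these values are a description without a test.

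**Figure D4:**
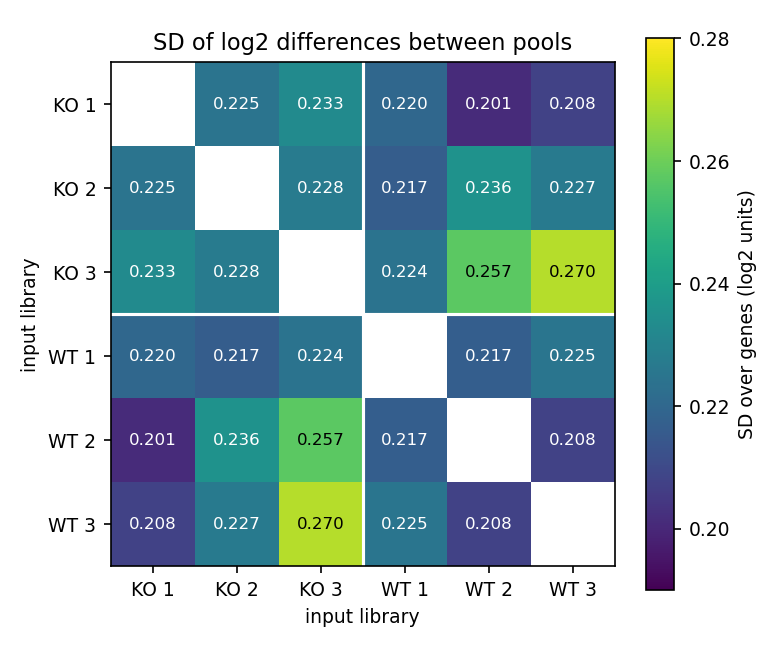
SD over 10823 autosomal genes of the log2 difference between each pair of input libraries, as a colour scale and as numbers, with white lines between the genotypes. The lowest value, 0.201, is that of KO pool 1 and WT pool 2, and the highest, 0.270, that of KO pool 3 and WT pool 3.

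The first principal component of the same genes held 31.9% of the variance. The KO pools lay at 3.68, -4.81 and -15.0 on it and the WT pools at -2.67, 8.26 and 10.5, so that KO pool 1 lay on the side of WT pools 2 and 3, and WT pool 1 on that of KO pools 2 and 3. The second component (20.4%) set KO pool 2 apart, at -12.6 against -4.71 to 6.12 for the others. The third (18.2%) set WT pool 1 apart, at -12.9, and the genotypes did not overlap on it, with the other WT pools at -2.80 and 1.97 and the KO pools at 7.57, 3.18 and 2.98. The genotypes overlapped on the first and the second.

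By class, the median over genes of the SD between the 3 pools was 0.452 in KO and 0.423 in WT under 1 CPM, 0.266 and 0.254 at 1 to 10 CPM, 0.119 and 0.104 at 10 to 100 CPM, 0.0774 and 0.0619 at 100 to 1000 CPM, and 0.0740 and 0.0830 at 1000 CPM and over. The KO SD exceeded the WT SD in 52.9%, 52.5%, 55.5% and 61.4% of the genes in the first 4 classes and in 43.2% in the highest. The biological coefficient of variation of the fitted trend fell from 29.4% under 1 CPM to 7.51% at 100 to 1000 CPM and was 8.18% in the highest class, with 12.1% as the common value.

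Each pool had a few genes that differed from the other 2 pools of its genotype by 2-fold or more. Among the 10823 genes there were 27 in KO pool 1, 4 in KO pool 2, 30 in KO pool 3, 32 in WT pool 1, 11 in WT pool 2 and 20 in WT pool 3. In WT pool 1, 31 of the 32 were lower, and in WT pool 3 all 20 were higher. The median within-genotype SD of a gene was 0.114, the 95th percentile 0.254, and 53 genes (0.490%) reached 0.5.

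The most abundant of these pool-specific genes lies on chromosome 17 (84819323 to 84929566), has 29 exon blocks and overlaps 2 other genes. It stood at 1446, 184 and 1969 CPM in KO and at 1376, 2531 and 2538 CPM in WT. KO pool 2 was thus 3.20 log2 units below the mean of the other KO pools, and the gene was not at an unadjusted p under 0.05. The most variable gene of all lies on chromosome 11 (87684407 to 87695239) and stood at 6.77, 3.32 and 51.6 CPM in KO and at 0.316, 0.218 and 10.3 CPM in WT. WT pools 1 and 2 were both far below WT pool 3. Its log2 change of 2.54 had an SE of 1.83.

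The gene just described was highest in KO pool 3 and lowest in WT pool 2, and so were 3 others among the genes farthest from their genotype's other pools. A gene on chromosome 2 (76534324 to 76812891), with 117334 bp in 345 exon blocks, stood at 48.4, 190 and 264 CPM in KO and at 96.9, 42.1 and 71.8 CPM in WT. Genes on chromosome 8 (124618508 to 124621490) and chromosome 11 (66969126 to 66993117) stood at 12.3, 35.0 and 88.0 CPM and at 15.0, 39.6 and 78.3 CPM in KO. In WT they stood at 13.9, 3.84 and 8.87 CPM and at 14.4, 4.54 and 15.2 CPM. In these 3 the KO pools differed from each other by more than 5-fold. ENSMUSG00000061086, described above as the strongest of those higher in KO, was also highest in KO pool 3 and lowest in WT pool 2. Its mean of 5.84 CPM lay below the 10 CPM required of the genes ranked here. Whether it varies between pools together with these genes was not tested.

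Another group of pool-specific genes lay on chromosome 13, each a single exon block that overlaps 1 other gene. At 23718076 to 23718474 the levels were 26.15, 11.99 and 3.02 CPM in KO and 3.12, 31.5 and 46.9 CPM in WT. At 22226630 to 22227114 they were 24.1, 10.0 and 3.39 CPM in KO and 3.95, 26.7 and 40.1 CPM in WT. The genes at 21900592 to 21900984 and 21994635 to 21995114 had a like order, with WT pool 3 highest and KO pool 3 or WT pool 1 lowest. The spread between pools of 1 genotype was here more than 5-fold, and the genotypes overlapped widely.

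By chromosome, medians of the log2 change ran from -0.011 to 0.0083 over the 19 autosomes. The share of tested genes at an unadjusted p under 0.05 ran from 4.44% on chromosome 12 to 7.22% on chromosome 13. The share of autosomal reads separated the genotypes on 1 of 19 autosomes, chromosome 11, at 8.27% ± 0.0966 in KO pools and 8.57% ± 0.254 in WT pools (SD, n = 3 per genotype; two-sided exact permutation p = 0.1, the smallest that 3 against 3 allows, and 0.76 after adjustment over 19 autosomes). The highest KO value, 8.32%, and the lowest WT value, 8.34%, nearly met. Without the 4 abundant genes on chromosomes 11 and 7 described above, the share of chromosome 11 was 7.65% ± 0.0915 in KO and 7.66% ± 0.111 in WT. These genes were left out because they were lower in KO, so this value is a description without a test. Chromosome 7 was then the 1 autosome without overlap, at 6.83% ± 0.0076 in KO and 6.77% ± 0.058 in WT. The number of autosomes without overlap was 5 without the gene with the most reads, and 4, 1, 6, 3, 3 and 2 without KO pool 1, KO pool 2, KO pool 3, WT pool 1, WT pool 2 and WT pool 3. With a pool fewer, groups overlap less easily, so these last counts are not on the same footing as the count over all pools.

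The autosomes were also divided into windows of 1000000 bp by the start of each gene, of which 1550 held 5 or more tested genes. In 794 of these windows no gene was at an unadjusted p under 0.05, in 705 there were 1 or 2 in the more frequent direction, and in 44 there were 3 or 4. The remaining 7 windows held 5 or more in 1 direction. Of these, 3 adjoined each other on chromosome 13, from 21000001 to 24000000, and were joined after their values had been seen, so what follows on that interval is a description without a test. The other 4 windows lay on chromosomes 8 (2 windows), 11 and 2, with median log2 changes from -0.012 to 0.064.

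The interval on chromosome 13 held 91 tested genes, of which 76 had negative and 15 positive estimates. At an unadjusted p under 0.05, 18 were lower and 3 higher in KO, 23.1% of the 91, and none passed the adjusted threshold (lowest adjusted p = 0.153, edgeR). The median log2 change was -0.21. No filter on low counts gave 5 called genes there and the fit without WT pool 2 gave 2. The median was -0.155 without WT pool 3.

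Short genes of 1 exon block made up much of this interval. All 41 single-block genes under 1000 bp had negative estimates, with a median log2 change of -0.28 and a range of -1.07 to -0.013, and 10 of them were at an unadjusted p under 0.05. Elsewhere on the autosomes, 2102 tested genes of the same kind had 1048 positive and 1054 negative estimates, a median of -0.00031 and 3.09% at an unadjusted p under 0.05. The 37 genes of the interval with 2 or more exon blocks had a median of -0.11, with 24 negative and 13 positive estimates. The gene with the smallest p, a single block of 463 bp (22227384 to 22227846), stood at 91.0, 84.9 and 85.0 CPM in KO and at 108, 100 and 120 CPM in the WT pools (log2 change -0.33, SE 0.074, adjusted p = 0.153, edgeR). A gene of 2 exon blocks in the interval (23868182 to 23876891) stood at 151, 138 and 134 CPM in KO and at 169, 164 and 179 CPM in the WT pools (log2 change -0.27, SE 0.067, adjusted p = 0.277, edgeR). In both, all KO pools were below all WT pools.

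Summed over the 41 short genes, however, the genotypes overlapped. The sum was 6509, 5192 and 5237 CPM in the KO pools and 6183, 6282 and 7241 CPM in the WT pools, with KO pool 1 above WT pools 1 and 2. Median deviations from the mean of all 6 libraries were 0.14, -0.19 and -0.25 log2 units in KO and -0.020, 0.093 and 0.27 in WT. For the short single-block genes elsewhere they were 0.067, -0.061 and 0.028 in KO and 0.0037, 0.031 and -0.011 in WT. KO pool 1 was high and KO pool 2 low in both sets. By these medians, KO pool 3 was low and WT pool 3 high in the interval, and neither was so elsewhere. The genes of the interval shared these deviations between pools, so they are not independent of each other. Whether copies of near-identical sequence share reads there was not tested.

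**Figure D5:**
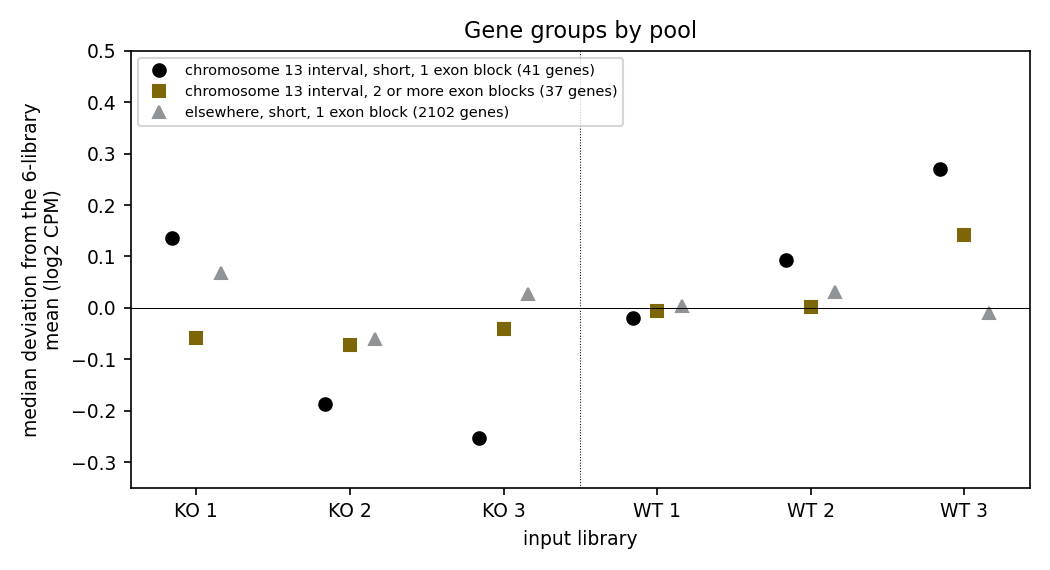
Median deviation from the mean over 6 libraries, in log2 CPM, of 3 gene sets in each input library: short genes of 1 exon block in the chromosome 13 interval (41), genes of 2 or more exon blocks there (37) and short genes of 1 exon block elsewhere (2102). The 41 short genes run from -0.25 in KO pool 3 to 0.27 in WT pool 3, with KO pool 1 at 0.14, inside the WT range.

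Deviations by gene length were largest in KO pools 1 and 2. Among autosomal genes of 1 CPM or more, the median log2 change was -0.0077 below 1000 bp of exons, 0.011 at 1000 to 2000 bp, -0.0056 at 2000 to 4000 bp, -0.0031 at 4000 to 8000 bp and -0.00072 from 8000 bp up. Below 1000 bp, KO pool 1 deviated by 0.071 and KO pool 2 by -0.085 from the mean of all libraries. From 8000 bp up they deviated by -0.031 and 0.042. The WT pools stayed within -0.0024 and 0.023 below 1000 bp and within -0.020 and 0.012 from 8000 bp up. Among them, WT pool 2 went from 0.023 to -0.020.

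Genes of a single exon block made up 21.9% of all tested autosomal genes, 18.1% of the 659 genes higher in KO without adjustment and 12.6% of the 669 lower ones. Genes that overlap another gene made up 55.2%, 62.1% and 50.1% of the same 3 sets, and the median level was 8.50, 7.08 and 16.7 CPM. The higher set thus held more overlapping genes and lower levels than the lower set, without a test of these differences.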

How the data were processed

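RNA was sequenced from pools of 5 pairs of E16.5 ovaries. The deposited input files hold raw counts per gene; per the file headers, the authors used featureCounts 1.6.3 on exons of the Ensembl release 104 annotation, added up by gene identifier, without an option for strand, read pairs or multiple placements. Reads of genes whose exons overlap and of near-identical copies are therefore uncertain. Overlap between genes is given here by their whole spans, introns included. Build GRCm38 and, with no role given, DESeq2 1.26.0, MACS2 2.1.0, BWA 0.7.12 and FastQC are named in the submitters' processing notes; BWA does not split reads over introns. Coordinates are those of the count files, whose annotation is of a newer build than GRCm38; none was converted, and the build used for alignment is not stated outright.

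The main test was that of edgeR 4.0.16 under R 4.3.3 (TMM, filterByExpr, robust quasi-likelihood test, KO over WT). The fit and the Benjamini-Hochberg adjustment covered all 23698 tested genes. The SE of a log2 change is its size over the root of the F statistic. Replicates differed beyond sampling noise in every pair (chi-square per degree of freedom 8.16 to 14.6). Log2 CPM for spreads used a prior count of 2. Alternatives were RLE factors, DESeq2 1.42.0, limma-voom (limma 3.58.1), other low-count filters, no robust moderation, an autosome-only fit, a replicate block and leaving out each pool. The edgeR step was run on simulated counts. Their coefficient of variation between pools was set below the 20.4% of the fitted trend at 1 to 10 CPM. The run thus does not show how well genes of that class are detected in these data.

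Genes for naming were picked by rule, and not all of those picked are described. The rule took all past the threshold, the 3 of each direction with the smallest p per level class and the 5 with most reads. It also took the 3 most variable and the 3 per pool farthest from the other pools of its genotype. The 41 short genes, the interval and the 4 abundant genes were singled out after their values were seen. Members and lists were chosen with earlier results of these data known. The RefSeq table used for names (GRCm38.p6) held 0 of the identifiers, so genes are given by position, Fmr1 apart (ENSMUSG00000000838), gene and marker lists were not used, and no promoter sequence was matched. The immunoprecipitated libraries were not used here.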

Additional observations from a re-analysis of the deposited data

How the results depend on the processing

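The 4 autosomal calls became 26 with DESeq2, 1 with limma-voom, 98 without the low-count filter and 13 with the replicate block, and ran from 2 to 25 with 1 pool left out. With RLE factors, a minimum mean of 1 CPM or an autosome-only fit the count was 4, and without robust moderation 5. The cause of the differences was not tested. Over genes of 10 CPM or more, same-numbered KO and WT pools did not deviate together (correlations of -0.252, -0.0957 and -0.201). These correlations cannot show whether same-numbered pools shared a litter or a preparation, which the labels do not give. The block is therefore given only here. With it, all 4 abundant genes on chromosomes 11 and 7 passed (edgeR), 3 of them with adjusted p of 0.000260 to 0.000427 against 0.779 to 0.796. The 1328 genes at an unadjusted p under 0.05 became 2583 without the filter, which tests more genes. Leaving out 1 pool, class medians ran from -0.011 to 0.0023 at 10 to 100 CPM, from -0.016 to -0.0045 at 100 to 1000 CPM and from -0.061 to -0.0062 at 1000 CPM and over. The spread within KO ran from 0.225 to 0.233 and within WT from 0.208 to 0.225. With 1 pool left out only 1 pair of a genotype remains, so these are the pair values given above and no separate check. Autosomes without overlap numbered 5 without the gene with the most reads and 1 to 6 with 1 pool left out. The gene at chromosome 15, 93132244 to 93132581, had a log2 change of 0.18, which ran from -0.0032 without WT pool 3 to 0.33 without WT pool 1; it passed in none of these fits. Of the other comparisons of single genes with an alternative, 365 kept direction and side of the threshold, 40 passed newly and 8 no longer passed. Gene lists were not run under any setting, since identifiers are not paired with names. With 3 pools per genotype, small changes in genes of low counts could not be detected.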
